A study of Danio rerio with 12 samples.

Results

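The effect of JQ1 on IRF4-driven zebrafish tumor cells was compared between 3 days and 1 day of treatment. The quantity described here is the interaction of treatment and day, that is the log2 ratio of JQ1 to DMSO at day 3 minus the same ratio at day 1. All 12 of the 12 RNA-seq libraries of the series enter it, in 4 groups of 3, namely JQ1 at day 3, DMSO at day 3, JQ1 at day 1 and DMSO at day 1. All animals carried human *IRF4* and the red fluorescent protein mCherry under the zebrafish *lck* promoter, which is active in T cells, and had developed lymphoma. The paper names wild-type *p53* for the animals of its drug treatment. They were kept one per tank with 4 μM JQ1 or its solvent DMSO, and tumor cells were sorted on mCherry. Cells were thus chosen by their fluorescence. Genes typical of other cell types, described below, had counts in these samples too. At day 3 the 3 libraries of a group came from 3 animals, as the paper states. For day 1 the labels give replicates 1 to 3, taken here as 3 animals too. Each library is thus read as a separate tumor that was sampled once, with no tumor followed over time. Differences between tumors then enter every comparison of days. Day 1 is named in the sample labels only. The paper used fish of mixed sex for the drug treatment, and the labels give no sex for any library.

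JQ1 occupies the bromodomains of the BET proteins, which read acetylated histones and recruit the elongation kinase P-TEFb to genes. In lymphoid tumors BET inhibition is known for lowering the transcription of MYC and of other genes with large enhancers. Its first effects fall on RNA synthesis itself, and the arrest of the cell cycle is commonly seen later.

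*hexim1*, whose product holds P-TEFb inactive and whose transcript is widely used as a marker of BET inhibition, was examined first as a check of the labels. Counts are given as CPM, counts per 1e6 counts on zebrafish genes after TMM normalization. *hexim1* had 170, 150 and 132 CPM in the JQ1 libraries and 67.1, 66.5 and 53.1 CPM in the DMSO libraries at day 3. At day 1, *hexim1* had 335, 215 and 186 CPM in the JQ1 libraries and 70.13, 91.2 and 46.5 CPM in the DMSO libraries. The JQ1 and DMSO libraries did not overlap on either day, and the gene rose with JQ1 by a log2 fold change of 1.27 at day 3 (adjusted p = 0.0209 from edgeR) and of 1.82 at day 1 (adjusted p = 0.0151 from edgeR). The interaction was −0.55 with a standard error of 0.40 (adjusted p = 0.762 from edgeR), and it turned positive under spike-in or T-cell marker scaling (0.43 to 0.74). Depth was similar in all libraries, with 8176139 to 12771912 counts on zebrafish genes, and 0 counts of a gene allow a level of 0.367 CPM at most in the shallowest library (3 counts, a limit that covers counting error only).

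The level of the transgenes and the yield of RNA per spike-in differed between libraries. Human *IRF4* and mCherry together had 6294, 787 and 4389 CPM (without TMM) in the JQ1 libraries and 11530, 6791 and 7716 CPM in the DMSO libraries at day 3. At day 1 they had 11180, 3962 and 7713 CPM in the JQ1 libraries and 10450, 9425 and 7284 CPM in the DMSO libraries at day 1. JQ1 replicate 2 of day 3 stood far below the other libraries. The change of the JQ1 effect between days was −1.24 on the log2 scale and −0.33 without that library, against a spread that gave p = 0.335 (two-sided exact permutation test of day labels within each treatment over 400 arrangements, smallest possible p = 0.005; adjusted p = 0.355 over 5 such measures). ERCC RNA had been added in proportion to the number of cells. Counts on zebrafish genes per ERCC count, on the log2 scale, averaged 5.87 ± 0.15 (SD, n = 3) in JQ1 and 6.52 ± 0.15 in DMSO libraries at day 3, and 5.06 ± 0.83 in JQ1 and 6.65 ± 0.16 in DMSO libraries at day 1. Each JQ1 library lay below the DMSO libraries of its day. The ratio was lower with JQ1 by 0.66 at day 3 and by 1.596 at day 1, a change of 0.94 (exact permutation p = 0.135, adjusted p = 0.355). In sorted bulk samples, fewer cells of a type and less RNA per cell cannot be told apart.

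**Figure D1:**
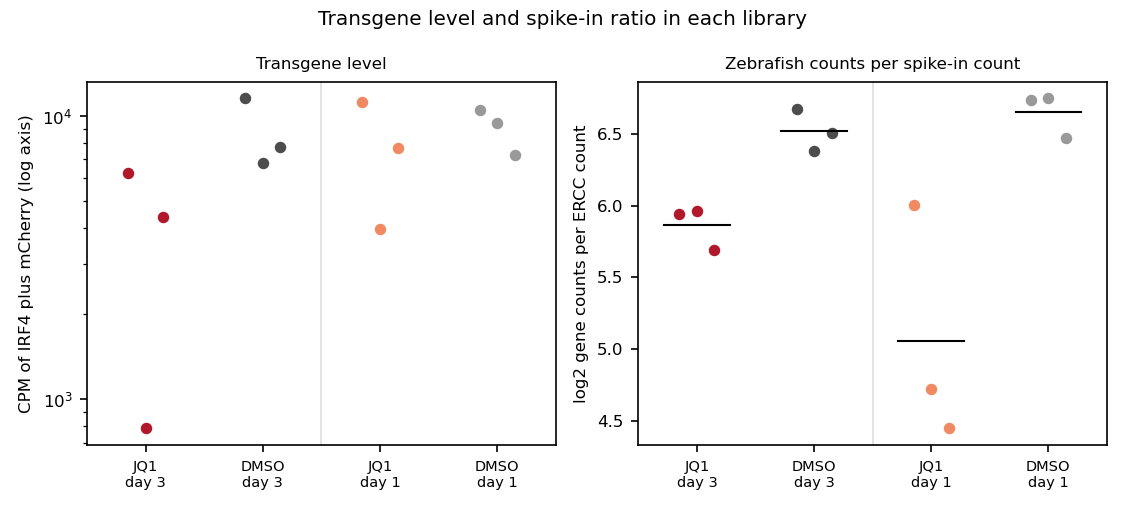
Level of human *IRF4* plus mCherry in CPM without TMM on a log axis (left) and the log2 ratio of counts on zebrafish genes to those on ERCC (right), 1 point per library in 4 groups of 3; bars on the right are group means. JQ1 replicate 2 of day 3 has the lowest transgene level, 787 CPM, and the JQ1 libraries of day 1 hold the lowest spike-in ratios, 4.45 and 4.72.

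No single gene passed the test of the interaction. Of 18116 genes with enough counts, 0 were higher (0%) and 0 lower (0%) at an adjusted p of 0.05, and the smallest adjusted p was 0.612 (edgeR's quasi-likelihood test with Benjamini-Hochberg adjustment). At an unadjusted p under 0.05, 655 genes (3.62%) had a higher and 605 genes (3.34%) a lower interaction. Of all genes tested, 47.92% had an interaction below 0. DESeq2 with its own size factors called 36 genes, 15 higher and 21 lower, and limma-voom called 0, with 1004 genes at an unadjusted p under 0.05. The effects of JQ1 on each day were themselves called for many more genes, 2203 higher (12.2%) and 1828 lower (10.1%) at day 3, and 469 higher (2.59%) and 422 lower (2.33%) at day 1 (edgeR). Across genes the effect at day 3 followed that at day 1 (Spearman's rho 0.713 over 18116 genes, which share the libraries of a day and are not independent). The values below are therefore descriptions of gene groups against all genes tested. The shares of all genes given above are the background for every count below, also where they are not repeated. None of the genes named for its interaction has an adjusted p under 0.612 in edgeR, whereas calls within a day are given as such.

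**Figure D2:**
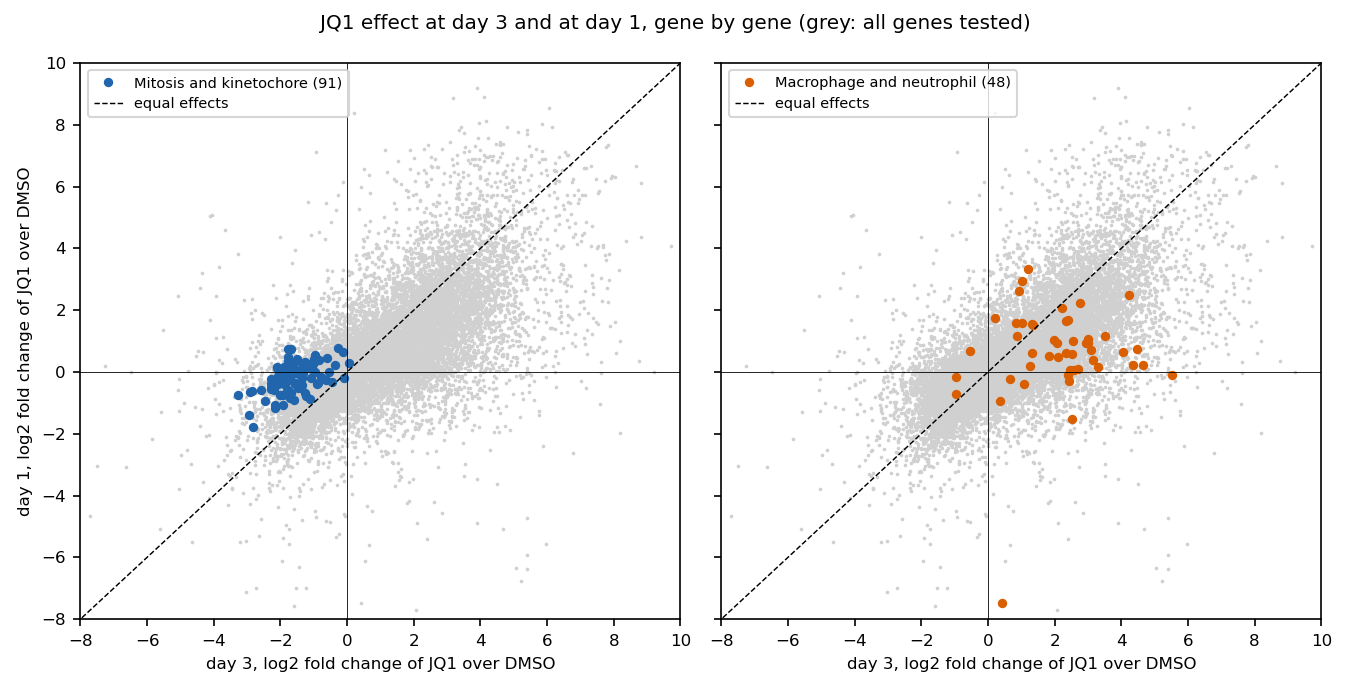
JQ1 effect at day 3 (x axis) against that at day 1 (y axis), both as log2 fold changes of JQ1 over DMSO; grey points are the 18116 genes tested (8 lie outside the drawn range), colored points the 91 mitosis genes (left) and the 48 macrophage and neutrophil genes (right), and the dashed line marks equal effects. With TMM scaling, mitosis genes lie above the line at negative day 3 values and day 1 values around 0, and most macrophage and neutrophil genes lie below it; with spike-in or T-cell marker scaling the median of all genes moves to 1.19 to 1.37 and that of the mitosis genes lies at −0.31 to −0.11.

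With TMM scaling, mitosis and kinetochore genes had lower values with JQ1 at day 3, and values near those of DMSO at day 1. None of them passed the edgeR test of the interaction. Effects within a day were computed with TMM only. Zebrafish counts per ERCC count were lower with JQ1 by 0.66 at day 3 and by 1.596 at day 1. Levels per spike-in can therefore differ from those given here, also at day 1. Of 91 mitosis and kinetochore genes tested, 90 had an interaction below 0 and 61 had one at an unadjusted p under 0.05, or 67.0% against 3.34% of all genes; none of the 91 did so in the higher direction. Their median interaction was −1.46, against 0.04 over all genes tested. In another list of cell division, 26 genes of motors and tubulins, the median interaction was −0.19, with medians of 0.52 at day 3 (8 called higher and 6 lower) and 0.60 at day 1, and 6 of 26 had a lower interaction at an unadjusted p under 0.05. The median effect of JQ1 was −1.68 at day 3, where 66 of 91 fell at an adjusted p of 0.05, and −0.19 at day 1, where 1 of 91 fell. The mean log2 CPM over the list was 4.43, 4.33 and 3.64 in JQ1 and 5.42, 6.17 and 5.73 in DMSO libraries at day 3, and 5.10, 4.39 and 4.95 in JQ1 and 5.09, 5.37 and 4.602 in DMSO libraries at day 1. JQ1 and DMSO libraries were apart at day 3 and overlapped at day 1. The median of the list was lower in JQ1 libraries at day 3 than in JQ1 libraries at day 1 (−0.65). It was higher in DMSO libraries at day 3 than in DMSO libraries at day 1 (0.78). The list means of the JQ1 libraries overlapped between days, and those of the DMSO libraries did not. Between days, 0 of 18116 genes were called within JQ1 and 0 within DMSO (adjusted p of 0.05, edgeR). For 78 of 91 genes (85.7%, against 15.7% of all genes) the mean CPM was highest of the 4 groups in DMSO at day 3 and lowest in JQ1 at day 3. Fewer mitosis genes had an unadjusted p under 0.05 without DMSO replicate 2 of day 3 (35), DMSO replicate 1 of day 1 (40) or DMSO replicate 3 of day 1 (37). None did with spike-in or T-cell marker scaling, which raised the median of all genes to 1.19 to 1.37 and left that of the list at −0.31 to −0.11. The distance of the list from the median of all genes was −1.72 to −1.16 with any library left out and −1.52 to −1.38 in the other settings tried.

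Genes of the mitotic spindle are given as examples. *ckap5*, a microtubule polymerase of the spindle, had 377, 191 and 332 CPM in JQ1 and 1382, 1246 and 1460 CPM in DMSO libraries at day 3. At day 1, *ckap5* had 468, 281 and 364 CPM in JQ1 and 390, 324 and 439 CPM in DMSO libraries. Its DMSO libraries of day 3 were above all others and the remaining 9 overlapped, with a log2 fold change of −2.18 at day 3 (adjusted p = 0.0126 from edgeR), of −0.05 at day 1 and an interaction of −2.13 ± 0.41 (standard error). *ccnb1*, cyclin B1, which drives entry into mitosis, had 46.3, 31.3 and 22.3 CPM in JQ1 and 96.1, 153 and 94.1 CPM in DMSO libraries at day 3. At day 1, *ccnb1* had 130, 60.5 and 80.7 CPM in JQ1 and 37.0, 76.0 and 49.8 CPM in DMSO libraries. The 3 JQ1 libraries were below the DMSO libraries at day 3 and overlapped with them at day 1, with an interaction of −2.52 ± 0.54. *tpx2*, a spindle assembly factor, had 73.6, 59.24 and 42.4 CPM in JQ1 and 162, 256 and 186 CPM in DMSO libraries at day 3. At day 1, *tpx2* had 167, 88.1 and 142 CPM in JQ1 and 104, 133 and 75.0 CPM in DMSO libraries. The interactions of *tpx2*, the kinetochore genes *cenpf* and *cenpe* and the mitotic kinase *pbk* were −2.14, −2.04, −1.88 and −2.28, and all 4 fell with JQ1 at day 3 (adjusted p = 0.0126 to 0.0151 from edgeR) but did not pass the test at day 1 (0.253 to 0.775). DESeq2 with its own size factors called *ckap5*, *tpx2*, *ccnb1*, *pbk* and *cenpf* lower for the interaction at adjusted p of 0.00498 to 0.0367.

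**Figure D3:**
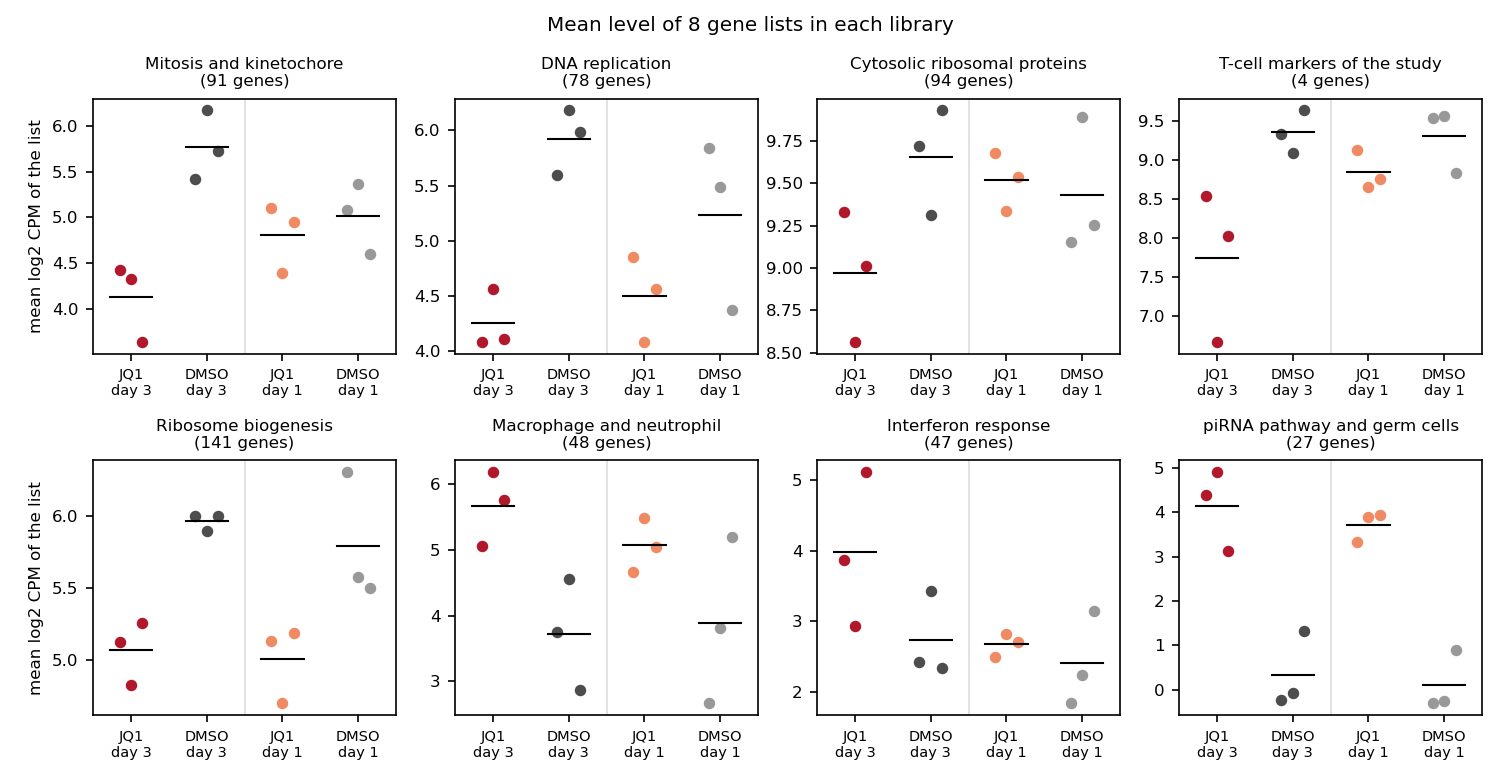
Mean log2 CPM (TMM, prior count 2) over the tested genes of 8 lists, 1 point per library with the group mean as a bar, in the order JQ1 and DMSO at day 3, then JQ1 and DMSO at day 1. For mitosis and kinetochore genes JQ1 and DMSO libraries are apart at day 3 (3.64 to 4.43 against 5.42 to 6.17) and overlap at day 1 (4.39 to 5.10 against 4.602 to 5.37), for ribosome biogenesis genes they are apart on both days, and for macrophage and neutrophil genes DMSO replicate 3 of day 1 lies with the JQ1 libraries (5.196).

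Genes of S phase had lower medians with JQ1 on both days, and the lower one at day 3. Among 78 DNA replication genes the median effect was −1.74 at day 3, with 56 of 78 called lower, and −0.77 at day 1, with 4 of 78 called lower (edgeR). The median interaction was −0.78 (−0.38 without DMSO replicate 3 of day 1), 72 of 78 were below 0, and 17 of 78 (21.8%, against 3.34% of all genes) had a lower and 1 of 78 a higher interaction at an unadjusted p under 0.05. With spike-in or T-cell marker scaling the median turned to between 0.28 and 0.56, still below that of all genes by 0.80 to 0.92. The count was 10 or 11 without JQ1 replicate 1 of day 3, DMSO replicate 2 of day 3, JQ1 replicate 1 of day 1 or DMSO replicate 3 of day 1, and 27 without DMSO replicate 1 of day 1. *dut*, which removes dUTP before it enters DNA, had 24.7, 27.2 and 16.6 CPM in JQ1 and 117, 167 and 146 CPM in DMSO libraries at day 3. At day 1, *dut* had 88.9, 43.1 and 61.0 CPM in JQ1 and 85.1, 101 and 39.6 CPM in DMSO libraries. *tk1*, thymidine kinase of the salvage pathway, had 20.2, 19.97 and 20.5 CPM in JQ1 and 72.2, 231 and 106 CPM in DMSO libraries at day 3. At day 1, *tk1* had 128, 47.6 and 89.4 CPM in JQ1 and 98.0, 92.3 and 40.4 CPM in DMSO libraries. In both genes the 3 JQ1 libraries of day 3 were the lowest of all 12, and the day 1 groups overlapped. Their interactions were −2.42 ± 0.52 and −2.95 ± 0.68.

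Further genes of replication, of deoxynucleotide supply and of histone variants are given next. *dhfr*, dihydrofolate reductase, had an interaction of −2.17, *pole*, the leading-strand polymerase, of −1.42, *slbp*, which binds the stem-loop of replication histone transcripts, of −2.0, and the ribonucleotide reductase subunits *rrm1* and *rrm2* of −1.70 and −2.62. All 5 fell with JQ1 at day 3 (log2 fold changes of −2.48 to −1.62, adjusted p = 0.0147 to 0.0356 from edgeR) and had values between −0.45 and 0.45 at day 1. These 5 were named for a small interaction p, which selects for unlike effects on the days, so they do not stand for their lists. Over the 43 genes of nucleotide, polyamine and one-carbon synthesis the median was −1.06 at day 3 and −0.48 at day 1. Effects were below 0 for 31 of 43 at day 3 and for 30 of 43 at day 1. The interaction was lower at an unadjusted p under 0.05 for 8 of 43 (4 to 11 with any library left out). Of 10 tested genes for histone variants, 7 had a lower interaction at an unadjusted p under 0.05 (median −1.49), 6 fell at day 3 and 0 at day 1, and the other genes of the 18 in the table had too few counts. The H3.3 gene *h3f3a* had 217, 121 and 167 CPM in JQ1 and 384, 641 and 488 CPM in DMSO libraries at day 3. At day 1, *h3f3a* had 549, 239 and 338 CPM in JQ1 and 425, 426 and 179 CPM in DMSO libraries. *h2afva* and *h2afvb*, which encode H2A.Z proteins, had interactions of −1.64 and −1.66.

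Genes outside cell division were also among those with the smallest p in the lower direction, and those described here were of mixed function. *mxd1*, a partner of Max that represses MYC targets, had 7.71, 9.33 and 5.77 CPM in JQ1 and 38.56, 21.03 and 28 CPM in DMSO libraries at day 3. At day 1, *mxd1* had 10.8, 12.9 and 8.06 CPM in JQ1 and 5.30, 7.10 and 4.76 CPM in DMSO libraries. It was low with JQ1 at day 3 and high with JQ1 at day 1, with no overlap on either day, and fell at day 3 (log2 fold change −1.94, adjusted p = 0.0147 from edgeR) with a value of 0.89 at day 1 (adjusted p = 0.131). The interaction was −2.83 ± 0.49. *cdh2*, N-cadherin, had 25.6, 34.4 and 28.7 CPM in JQ1 and 108, 248 and 289 CPM in DMSO libraries at day 3. At day 1, *cdh2* had 47.0, 36.7 and 40.7 CPM in JQ1 and 57.6, 20.3 and 21.8 CPM in DMSO libraries. As in *ckap5*, the DMSO libraries of day 3 stood above the other 9, with an interaction of −3.18 ± 0.61. *hmgn7*, of a family of nucleosome-binding proteins, had an interaction of −1.44 ± 0.30, and *calm1b*, calmodulin, of −1.76 ± 0.37 with a rise at day 1 (adjusted p = 0.0383 from edgeR). *tafa4b*, a secreted TAFA family protein, had no counts in the 3 JQ1 libraries of day 3 and 6.20, 7.74 and 1.64 CPM in the DMSO libraries of day 3, with 1.37, 1.39 and 2.45 CPM in JQ1 and 2.95, 1.06 and 0.659 CPM in DMSO libraries at day 1. Under DESeq2 with its own size factors *mxd1*, *cdh2*, *hmgn7*, *calm1b* and *tafa4b* were among the 21 genes called lower. So were *lgals1l1*, *TBX19*, *tacr1a*, *fam83fb* and *cited4b*, which are not described further.

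**Figure D4:**
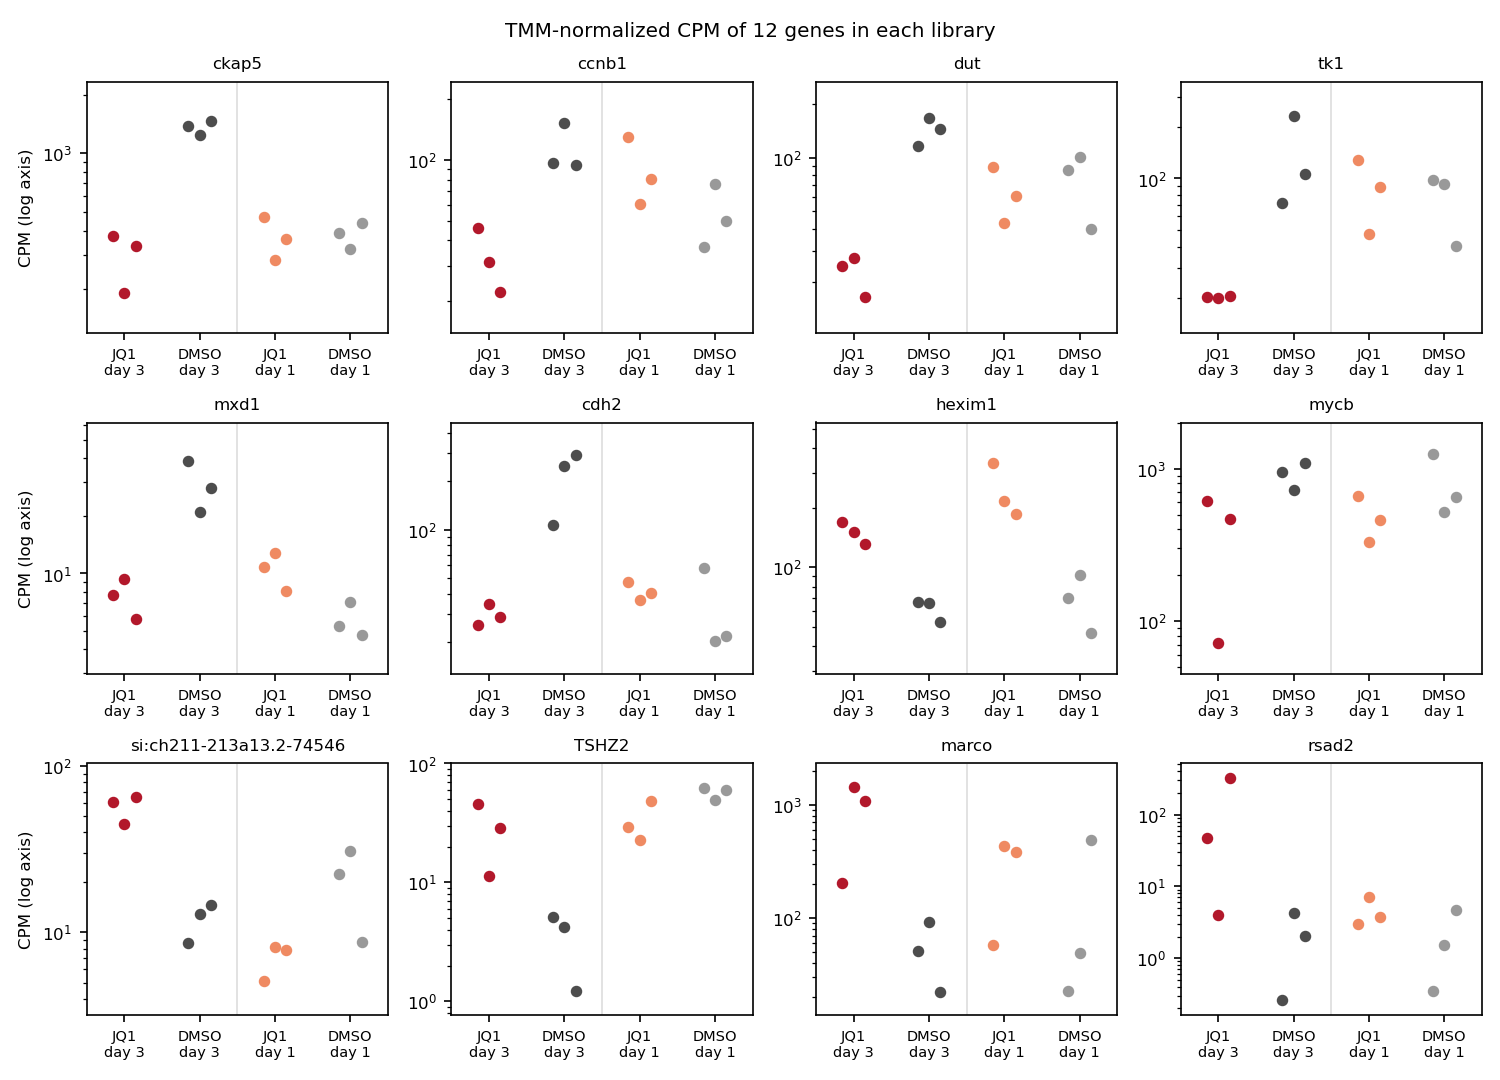
TMM-normalized CPM of 12 genes on log axes, 1 point per library, in the order JQ1 and DMSO at day 3, then JQ1 and DMSO at day 1. In *ckap5* and *cdh2* the DMSO libraries of day 3 stand apart (1246 to 1460 and 108 to 289 CPM), in *dut* and *tk1* the JQ1 libraries of day 3 are the lowest, and in *marco* and *rsad2* the libraries of a group are widely spread (204 to 1445 and 4.01 to 322 CPM in JQ1 at day 3).

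Lists of translation genes differed in their median interaction. It was −0.37 for 82 translation factor genes and −0.33 for 22 tRNA charging genes. Both values lay between those of ribosome biogenesis and cytosolic ribosomal protein genes, which are described next. Ribosome biogenesis genes, which build ribosomes in the nucleolus, had similar effects on both days. All 141 tested had an effect below 0 at day 3 (54 called lower) and 136 of 141 at day 1 (17 called lower), the medians were −0.86 and −0.81, and 2 of 141 had a lower interaction at an unadjusted p under 0.05 (1.42%, against 3.34% of all genes), with a median interaction of −0.01 that lay from −0.24 to 0.23 with any library left out. With spike-in or T-cell marker scaling it was 1.097 to 1.198, against 1.19 to 1.37 for all genes, and 14 to 25 of 141 genes had a higher interaction at an unadjusted p under 0.05. *ftsj3*, an rRNA methyltransferase, had 46.6, 37.0 and 58.4 CPM in JQ1 and 120, 103 and 126 CPM in DMSO libraries at day 3. At day 1, *ftsj3* had 22.0, 15.3 and 32.6 CPM in JQ1 and 166, 74.1 and 89.97 CPM in DMSO libraries. It fell on both days (adjusted p = 0.0297 at day 3 and 0.0147 at day 1 from edgeR), with log2 fold changes of −1.297 at day 3 and −2.24 at day 1 and no overlap of JQ1 and DMSO.

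Cytosolic ribosomal protein genes, the structural parts of the ribosome, differed between days in the median, while few single genes passed a test. The median effect over 94 genes was −0.73 at day 3, with 6 called lower, and 0.09 at day 1, with 2 called lower. Neither number exceeded the share of all genes called lower, 10.1% at day 3 and 2.33% at day 1. Of the 94, 87 had an interaction below 0 (median −0.81, or −0.49 without JQ1 replicate 2 of day 3). A lower interaction at an unadjusted p under 0.05 was found for 9 (9.57%, against 3.34% of all genes). This number was 0 without any one of 8 libraries and 62 without DMSO replicate 2 of day 1. Scaled by spike-ins or T-cell markers, the median was 0.24 to 0.32 and lay 0.94 to 1.05 under that of all genes. *RPS7*, a protein of the small subunit, had 2224, 967 and 1507 CPM in JQ1 and 3236, 2175 and 4934 CPM in DMSO libraries at day 3. At day 1, *RPS7* had 3039, 2207 and 2544 CPM in JQ1 and 2009, 3311 and 2014 CPM in DMSO libraries. Over the 96 genes in the table the summed level was 155000, 89720 and 115800 CPM (without TMM) in JQ1 and 174700, 126000 and 182000 CPM in DMSO libraries at day 3, and 156700, 143900 and 160000 CPM in JQ1 and 110300, 180900 and 134800 CPM in DMSO libraries at day 1, with the lowest value in the JQ1 library that also had the lowest transgene level. Splicing factor genes had medians of −0.90 at day 3 (42 of 90 called lower) and −0.45 at day 1 (4 of 90). A lower interaction at an unadjusted p under 0.05 was found for 8 of 90 (8.89%, against 3.34% of all genes), or 2 to 11 with any library left out.

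The 10 tumor genes selected by the study and its 4 T-cell markers had lower medians with JQ1 at day 3 than at day 1, and single genes varied widely among the JQ1 libraries. The 41 T-lineage transcription factor genes had medians of 0.26 at day 3 and 0.08 at day 1, with a median interaction of 0.12 and 23 of 41 above 0. *mycb*, a zebrafish MYC gene, had 611, 72.0 and 470 CPM in JQ1 and 951, 728 and 1083 CPM in DMSO libraries at day 3. At day 1, *mycb* had 659, 331 and 464 CPM in JQ1 and 1254, 523 and 654 CPM in DMSO libraries. The interaction was −0.52 ± 0.85 and turned to 0.06 without JQ1 replicate 2 of day 3, and to 0.27 to 0.43 with spike-in or T-cell marker scaling. *gata3*, a T-cell transcription factor, had 1173, 225 and 754 CPM in JQ1 and 1361, 1420 and 2327 CPM in DMSO libraries at day 3. At day 1, *gata3* had 1422, 1339 and 1598 CPM in JQ1 and 3509, 2260 and 2275 CPM in DMSO libraries, with an interaction of −0.36 ± 0.67 that turned to 0.16 without the same library and to 0.48 to 0.77 under those scalings. JQ1 libraries lay below DMSO libraries on each day for *gata3*, while neither gene passed the test within a day (adjusted p = 0.0737 to 0.460 from edgeR).

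The 10 tumor genes, *mycb* and *gata3* among them, were selected by the study for expression and chromatin in the tumors, and the list was used here with its values in these samples known. All 10 had an effect below 0 at day 3 (6 called lower) and 8 of 10 at day 1 (0 called), with medians of −1.44 and −0.57. The median interaction was −1.13 (−0.65 without JQ1 replicate 2 of day 3), and all 10 were below 0. An unadjusted p under 0.05 was found for 3 of 10 (30%, against 3.34% of all genes in the lower direction). That number became 0 without JQ1 replicate 2 of day 3 or DMSO replicate 3 of day 3 and 1 without any of 7 other libraries. These 3 were *sec22ba*, a vesicle trafficking protein (−2.25), *ncaldb*, a neuronal calcium sensor (−1.42), and *h2afx*, a histone variant of DNA damage signaling (−1.51). *ncaldb* had 152, 44.3 and 127 CPM in JQ1 and 369, 383 and 687 CPM in DMSO libraries at day 3. At day 1, *ncaldb* had 312, 142 and 187 CPM in JQ1 and 419, 372 and 279 CPM in DMSO libraries.

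Markers of T cells were examined as a check of the sorted population. *lck*, the T-cell kinase whose promoter drives the transgene, had 461, 91.0 and 430 CPM in JQ1 and 969, 1110 and 1240 CPM in DMSO libraries at day 3. At day 1, *lck* had 1211, 472 and 625 CPM in JQ1 and 1261, 1166 and 609 CPM in DMSO libraries. It fell at day 3 (log2 fold change −1.76, adjusted p = 0.0424 from edgeR), as did *themis*, a regulator of thymocyte selection (−1.89, adjusted p = 0.0213), and neither passed the test at day 1. All 4 markers had an effect below 0 at day 3, but *bcl11ba* and *lat* did not pass the test there. The summed CPM of the 4 marker genes had a log2 interaction of −0.81 (exact permutation p = 0.205, adjusted p = 0.355), which was −0.34 without the JQ1 library with the lowest transgene level. The CD8 coreceptor genes were high in DMSO libraries of day 3. *cd8a* had 2.52, 1.19 and 2.13 CPM in JQ1 and 10.1, 79.7 and 107 CPM in DMSO libraries at day 3. At day 1, *cd8a* had 0.687, 6.60 and 1.49 CPM in JQ1 and 1.74, 4.51 and 6.96 CPM in DMSO libraries. The DMSO libraries of day 3 were the highest of the 12, though one of them was close to the highest of the rest. *cd8a* and *cd8b* fell with JQ1 at day 3 (log2 fold changes −5.07 and −5.86, adjusted p = 0.0167 and 0.0147 from edgeR), and their interactions were −4.49 ± 1.29 and −3.68 ± 1.19. *grap2b*, an adaptor of T-cell receptor signaling, had an interaction of −1.15, and *cd247l*, a gene similar to the CD3 zeta chain, of 3.57. The list of T-cell receptor and signaling genes was mixed in direction. Of 36 tested, 21 had an interaction below 0 and 15 above it (median −0.41). At an unadjusted p under 0.05, 4 were lower (11.1%) and 2 higher (5.56%). At day 3 the median effect was −0.24, with 8 called lower and 1 higher.

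BET and P-TEFb genes, the targets of the drug and their partners, had mostly negative interactions with TMM scaling, but few at an unadjusted p under 0.05. Of 26 tested, 21 had an interaction below 0 and 5 above it, where 47.92% of all genes were below 0. The median was −0.45 against 0.04 over all genes tested. At an unadjusted p under 0.05, 1 had a higher interaction (3.85%, against 3.62% of all genes) and 0 a lower one (against 3.34%). *BRD2*, a BET gene that cells commonly raise when BET proteins are inhibited, had 619, 512 and 581 CPM in JQ1 and 413, 355 and 395 CPM in DMSO libraries at day 3. At day 1, *BRD2* had 1157, 731 and 767 CPM in JQ1 and 380, 421 and 245 CPM in DMSO libraries. JQ1 libraries were above DMSO libraries on both days, the gene rose at day 1 (log2 fold change 1.34, adjusted p = 0.0235 from edgeR) and had a log2 fold change of 0.56 at day 3 (adjusted p = 0.120). The interaction of −0.79 ± 0.36 turned to 0.21 to 0.48 with spike-in or T-cell marker scaling. Among 15 Myc family genes, *mxd1* and *mxd3* (interaction −1.63) had a lower interaction at an unadjusted p under 0.05, and 0 a higher one.

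Genes of macrophages and inflammation had positive medians, with wide spread between libraries. Of 48 macrophage and neutrophil genes tested of 49 in the table, 36 had an interaction above 0 (median 1.51). At an unadjusted p under 0.05, 5 had a higher one (10.4%, against 3.62% of all genes) and 1 a lower one (2.08%, against 3.34%). The median effect was 2.33 at day 3, with 13 called higher, and 0.67 at day 1, with 2 called higher. *marco*, a scavenger receptor of macrophages, had 204, 1445 and 1075 CPM in JQ1 and 51.0, 92.4 and 22.4 CPM in DMSO libraries at day 3. At day 1, *marco* had 58.5, 431 and 387 CPM in JQ1 and 22.9, 49.7 and 484 CPM in DMSO libraries. The groups of day 3 were apart, and at day 1 the highest library was DMSO replicate 3. The complement gene *c1qb* had 27.8, 54.7 and 81.1 CPM in JQ1 and 8.35, 19.1 and 1.91 CPM in DMSO libraries at day 3. At day 1, *c1qb* had 4.81, 30.7 and 38.2 CPM in JQ1 and 4.34, 12.8 and 52.8 CPM in DMSO libraries. The summed level of the 49 genes was 6154 to 17620 CPM (without TMM) in JQ1 and 1633 to 3639 CPM in DMSO libraries at day 3, and 5462 to 7713 CPM in JQ1 and 1681 to 7663 CPM in DMSO libraries at day 1. In each library 1 to 4 of the 49 genes were at 0, and the markers *marco*, *c1qa*, *c1qb*, *c1qc* and *lyz* had counts in all 12. The other granulocyte marker set beforehand, *mpx*, is not reported here. The B-cell markers *PAX5*, *cd79a* and *blnk* had at most 13.19, 25.1 and 77.0 CPM in any library. The 21 genes of the B-cell list summed to 984.9 to 1735 CPM (without TMM) in JQ1 and 326.2 to 3109 CPM in DMSO libraries at day 3. At day 1 they summed to 626 to 1308 CPM in JQ1 and 205.3 to 1482 CPM in DMSO libraries. The part of other cells in these results was not tested. The median interaction was 0.36 without DMSO replicate 3 of day 1 and −0.17 when that library and JQ1 replicate 2 of day 3 were both left out. The number of macrophage and neutrophil genes higher at an unadjusted p under 0.05 ranged from 1 without JQ1 replicate 2 of day 3 to 20 without DMSO replicate 1 of day 1.

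Chemokine genes were distributed in the same way. Of 65 chemokine and receptor genes, 51 had an interaction above 0 (median 1.76, or 1.62 with genes that had no counts in a group set to 3 counts per library), 11 had a higher one and 2 a lower one at an unadjusted p under 0.05 (16.9% and 3.08%), and 23 were called higher at day 3 against 3 at day 1. *ccl34a.4*, a chemokine ligand, had 38.3, 706 and 714 CPM in JQ1 and 8.44, 7.08 and 3.14 CPM in DMSO libraries at day 3. At day 1, *ccl34a.4* had 371, 195 and 293 CPM in JQ1 and 7.47, 33.1 and 498 CPM in DMSO libraries. *cxcl8a*, which attracts neutrophils, had an interaction of 4.73 ± 1.73 that was 0.27 without DMSO replicate 3 of day 1 and JQ1 replicate 2 of day 3. In the lower direction *ccr9b*, a receptor that guides T-cell progenitors to the thymus, had 67.2, 16.2 and 64.4 CPM in JQ1 and 123, 219 and 233 CPM in DMSO libraries at day 3. At day 1, *ccr9b* had 265, 143 and 194 CPM in JQ1 and 168, 84.4 and 78.2 CPM in DMSO libraries. It fell at day 3 (log2 fold change −1.96, adjusted p = 0.0283 from edgeR), with an interaction of −2.82 ± 0.71. Without DMSO replicate 3 of day 1 the median was 0.84 and the number of higher chemokine genes 4, without JQ1 replicate 3 of day 3 they were 1.13 and 6, and the number was 21 without DMSO replicate 1 of day 1.

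Of 47 interferon response genes, 12 were called higher at day 3 and 0 at day 1, the median effects were 1.19 and 0.10, and 9 had a higher and 1 a lower interaction at an unadjusted p under 0.05 (19.1% and 2.13%, median 1.46). *rsad2*, the antiviral enzyme viperin, had 47.7, 4.01 and 322 CPM in JQ1 and 0.258, 4.25 and 2.05 CPM in DMSO libraries at day 3. At day 1, *rsad2* had 2.95, 7.12 and 3.77 CPM in JQ1 and 0.347, 1.53 and 4.69 CPM in DMSO libraries. JQ1 replicate 3 of day 3 was the highest and JQ1 replicate 2 of day 3 lay within the DMSO range. *stat2*, a transducer of the interferon signal, had 139, 127 and 412 CPM in JQ1 and 60.6, 99.3 and 63.1 CPM in DMSO libraries at day 3. At day 1, *stat2* had 67.1, 68.1 and 91.0 CPM in JQ1 and 51.1, 72.5 and 81.5 CPM in DMSO libraries. It rose at day 3 (log2 fold change 1.61, adjusted p = 0.0292 from edgeR) and had a log2 fold change of 0.14 at day 1, and *mxa*, an antiviral GTPase, had an interaction of 4.59, or 2.26 without DMSO replicate 3 of day 1. The list's median was 0.42 when JQ1 replicate 3 of day 3 was left out (2 higher genes) and 1.86 when JQ1 replicate 2 of day 3 was (19 higher genes). Without DMSO replicate 3 of day 1, 2 genes were higher.

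Lysosome genes had a positive median as well. Of 90 tested, 71 had an interaction above 0 (median 0.60) and 11 had a higher one at an unadjusted p under 0.05 (12.2%), while 19 were called higher at day 3 and 2 at day 1, with medians of 0.87 and 0.02. Several were subunits of the proton pump that acidifies lysosomes, among them *ATP6V1H* with 36.6, 91.4 and 59.7 CPM in JQ1 and 35.4, 41.2 and 36.6 CPM in DMSO libraries at day 3. At day 1, *ATP6V1H* had 31.5, 46.0 and 33.6 CPM in JQ1 and 40.7, 54.9 and 58.3 CPM in DMSO libraries. JQ1 and DMSO overlapped at day 3 and the interaction was 1.199 ± 0.44. *TFE3*, a transcription factor of lysosome genes, rose at day 3 (log2 fold change 1.26, adjusted p = 0.0390 from edgeR) and had −0.10 at day 1. The number of lysosome genes at an unadjusted p under 0.05 was 5 without DMSO replicate 3 of day 1, 1 when JQ1 replicate 2 of day 3 was left out as well, and 31 without DMSO replicate 1 of day 1. *hmox1a*, heme oxygenase, and *fthl28*, a ferritin chain, had interactions of 3.13 and 5.34, which were 0.42 and 0.68 without JQ1 replicate 2 of day 3 and DMSO replicate 3 of day 1. *hmox1a* had 111, 364 and 140 CPM in JQ1 and 11.7, 14.2 and 6.28 CPM in DMSO libraries at day 3. At day 1, *hmox1a* had 37.7, 90.1 and 105 CPM in JQ1 and 4.95, 11.5 and 90.04 CPM in DMSO libraries. Endothelial genes had a median of 1.68 that turned to −0.18 without DMSO replicate 3 of day 1, the endothelial and macrophage receptor *mrc1a* among them (3.95, or 2.46 without JQ1 replicate 3 of day 3). Complement and liver plasma protein genes had a median of 1.07 that turned to −0.14 without JQ1 replicate 3 of day 3.

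The genes with the smallest p in the higher direction were mostly outside these lists. The smallest of all belonged to si:ch211-213a13.2 (ENSDARG00000074546), an unnamed gene with 60.8, 44.7 and 64.7 CPM in JQ1 and 8.69, 12.9 and 14.6 CPM in DMSO libraries at day 3, and 5.11, 8.17 and 7.89 CPM in JQ1 and 22.3, 30.8 and 8.72 CPM in DMSO libraries at day 1. JQ1 was above DMSO at day 3 and below it at day 1, with no overlap on either day. The log2 fold change was 2.24 at day 3 (adjusted p = 0.0152 from edgeR) and −1.54 at day 1 (adjusted p = 0.0569), and the interaction was 3.78 ± 0.60. It passed an adjusted p of 0.05 with spike-in scaling (0.0356 from edgeR), with DESeq2 (2.36e-05) and without DMSO replicate 3 of day 1 (0.0351 from edgeR). *TSHZ2*, a zinc finger transcription factor, had 46.0, 11.3 and 28.8 CPM in JQ1 and 5.08, 4.25 and 1.23 CPM in DMSO libraries at day 3. At day 1, *TSHZ2* had 29.2, 22.8 and 48.3 CPM in JQ1 and 62.5, 49.4 and 59.3 CPM in DMSO libraries. Here the DMSO libraries of day 3 were the lowest of all 12. *STIM2*, a calcium sensor of the endoplasmic reticulum, had 6.72, 4.57 and 15.1 CPM in JQ1 and 1.38, 1.42 and 1.09 CPM in DMSO libraries at day 3. At day 1, *STIM2* had 1.67, 2.61 and 2.02 CPM in JQ1 and 5.21, 3.45 and 10.6 CPM in DMSO libraries.

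*IL10*, an anti-inflammatory cytokine, had 25.7, 15.2 and 22.8 CPM in JQ1 and 3.19, 8.17 and 9.15 CPM in DMSO libraries at day 3. At day 1, *IL10* had 20.1, 17.3 and 30.8 CPM in JQ1 and 36.1, 30.7 and 31.6 CPM in DMSO libraries. The JQ1 libraries of both days had similar levels, the DMSO libraries of day 3 were the lowest, and the interaction was 2.17 ± 0.55. The jacalin gene *jac2*, of a family of sugar-binding proteins, had 166, 51.4 and 1944 CPM in JQ1 and 3.44, 0.654 and 3.28 CPM in DMSO libraries at day 3. At day 1, *jac2* had 2.85, 7.21 and 5.78 CPM in JQ1 and 2.26, 58.0 and 2.27 CPM in DMSO libraries. It was high in the JQ1 libraries of day 3 and in DMSO replicate 2 of day 1, and rose at day 3 (adjusted p = 0.0195 from edgeR).

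**Figure D5:**
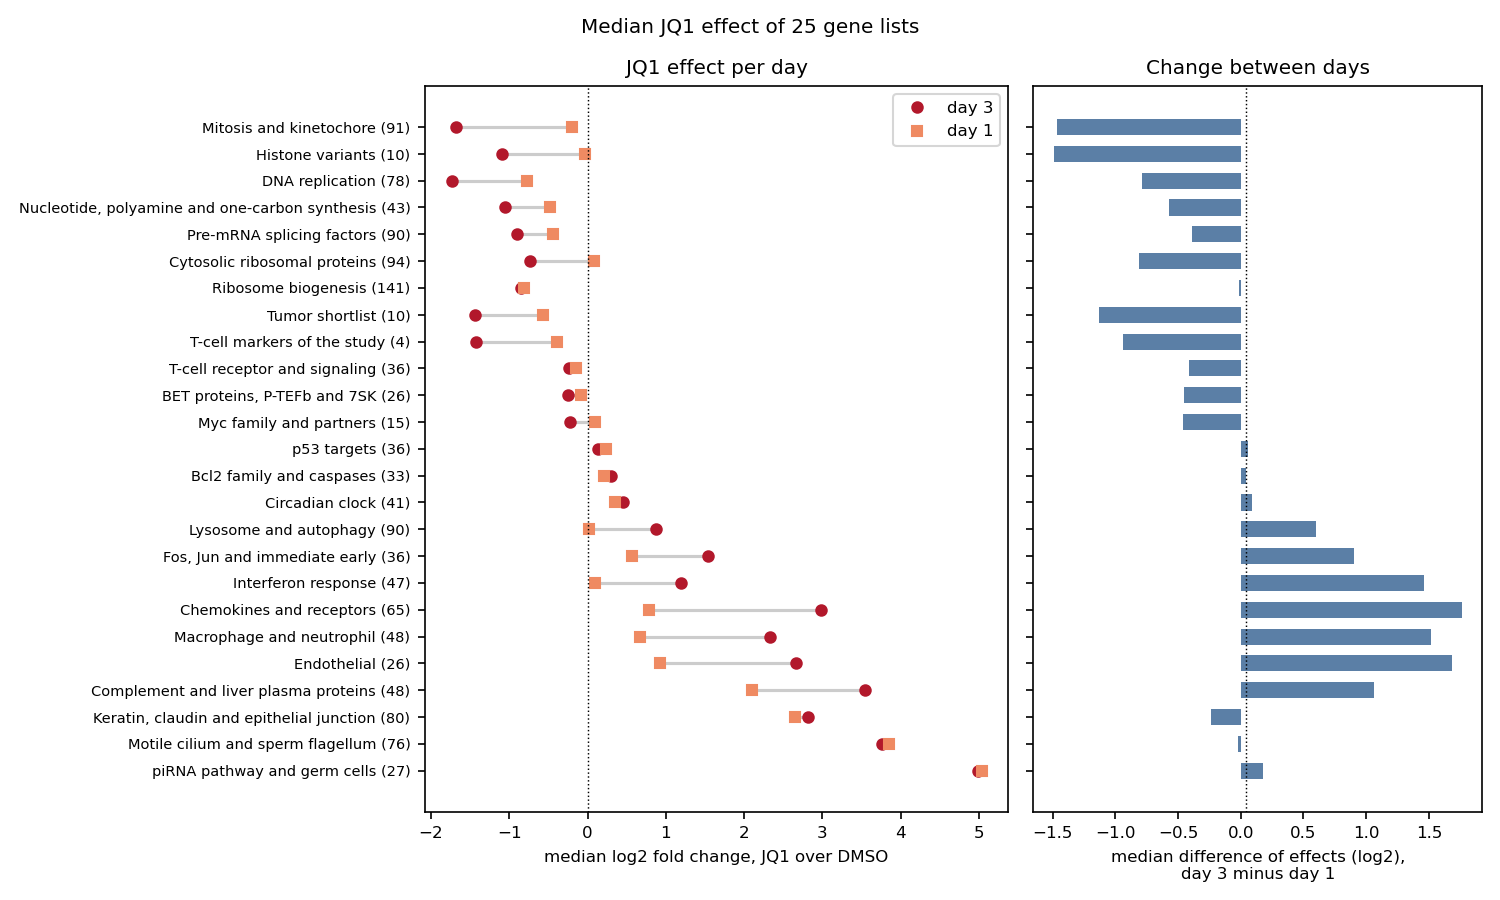
Left, median log2 fold change of JQ1 over DMSO at day 3 (circles) and day 1 (squares) for 25 gene lists with the number of genes tested in brackets; right, median interaction, day 3 minus day 1, with the median of all genes tested (0.04) as a dotted line. Mitosis and kinetochore genes have a median interaction of −1.46 and ribosome biogenesis genes of −0.01, and with spike-in or T-cell marker scaling, which moves the median of all genes to 1.19 to 1.37, several lists below 0 turn above it, among them DNA replication, nucleotide synthesis, splicing and ribosomal proteins.

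Germ-line and cilium genes had high medians with JQ1 on both days, with an exception for cilium and meiosis genes in 1 library. Genes of the piRNA pathway and germ cells, which silence transposons in the germ line, had median effects of 4.99 at day 3 (18 of 27 called higher) and 5.04 at day 1 (13 of 27), and 0 of 27 had an interaction at an unadjusted p under 0.05 in either direction. *piwil2*, a Piwi protein, had 31.4, 85.5 and 12.2 CPM in JQ1 and 0.258, 0.654 and 1.09 CPM in DMSO libraries at day 3. At day 1, *piwil2* had 16.0, 28.3 and 31.0 CPM in JQ1 and at most 0.0959 CPM in DMSO libraries, which is under the limit that 3 counts set there. Motile cilium and sperm flagellum genes had medians of 3.76 at day 3 (25 of 76 called higher) and 3.85 at day 1 (5 of 76). The mean log2 CPM of the cilium list was 4.30, 3.06 and −0.34 in JQ1 and −0.47, −0.61 and 1.15 in DMSO libraries at day 3, and 2.16, 2.99 and 1.96 in JQ1 and −0.82, −0.78 and −0.06 in DMSO libraries at day 1. JQ1 replicate 3 of day 3, with 31 of 83 genes at 0 counts, lay within the DMSO range, and the groups of day 1 were apart. The egg yolk protein gene *vtg1*, typical of females, had 6, 0 and 204641 counts in JQ1 and 2568, 1499 and 1 in DMSO libraries at day 3. It had 0, 0 and 4 counts in JQ1 and 377, 0 and 0 in DMSO libraries at day 1. The sex of each fish was not given, and its part in the germ-line, cilium, meiosis and liver lists was not tested. The 33 meiosis genes tested had medians of 3.84 at day 3 and 2.82 at day 1. Their mean log2 CPM in JQ1 replicate 3 of day 3 was 0.79, within the −0.32 to 1.01 of the DMSO libraries of day 3. With genes that had no counts in a whole group set to a limit of 3 counts per library, the medians at day 3 and day 1 were 4.81 and 5.04 for the germ-line list and 3.76 and 3.64 for the cilium list. Both lists had a median interaction near 0 whose sign changed with single libraries (−0.32 to 1.40 and −1.16 to 1.2 with any library left out). *CCDC39*, an axoneme assembly factor, rose at day 1 (adjusted p = 0.0391 from edgeR) and had an adjusted p of 0.645 at day 3. It had 37.0, 7.33 and 2.05 CPM in JQ1 and 27.2, 12.5 and 32.2 CPM in DMSO libraries at day 3, and 13.6, 20.5 and 2.72 CPM in JQ1 and at most 0.659 CPM in DMSO libraries at day 1. Keratin, claudin and epithelial junction genes were likewise higher on both days, with medians of 2.81 (45 of 80 called) and 2.65 (28 of 80).

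Apoptosis, p53 and clock genes had medians of the interaction between 0.04 and 0.09. Of 33 Bcl2 family and caspase genes 1, of 36 p53 targets 3 and of 41 circadian clock genes 1 had an unadjusted p under 0.05 in either direction. The share over all genes in either direction was 6.955%. Immediate early genes of the Fos and Jun kind had medians of 1.53 at day 3 (10 of 36 called higher) and 0.56 at day 1 (0 of 36). The median of the list was lower in DMSO libraries at day 3 than in DMSO libraries at day 1 (−1.74). The mean log2 CPM of the list overlapped between them (2.88 to 4.54 at day 3 and 3.63 to 5.79 at day 1). The median interaction was 0.90, and 0.05 without DMSO replicate 2 of day 1. *rgs2*, a brake on G-protein signaling, had 9.77, 27.2 and 16.5 CPM in JQ1 and 0.947, 0.981 and 0.956 CPM in DMSO libraries at day 3. At day 1, *rgs2* had 7.76, 14.4 and 3.51 CPM in JQ1 and 1.04, 3.26 and 9.23 CPM in DMSO libraries. Pancreas enzyme genes had the lowest median interaction of all 55 lists, −2.82, which turned to 1.51 without JQ1 replicate 3 of day 1, to 0.04 without DMSO replicate 2 of day 3 and to −0.22 in limma-voom. The carboxypeptidase gene *CPB1* had 61.5 CPM in that library and 0.172 to 9.77 CPM in the other 11.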

How the data were processed

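The authors sequenced strand-specific libraries of paired-end reads on the BGISEQ-500, aligned them with STAR 2.5.2a to GRCz11 and counted uniquely mapped reads per Ensembl gene with featureCounts. The deposited table holds these counts without normalization for 25743 features: 25607 zebrafish genes, 92 spike-ins (ERCC), the 2 transgenes and 42 constructs of T-cell receptors (left out, with 0 counts in all libraries). No value of the authors' DESeq2 1.12.4 comparison tables, one for each day, was used. All 12 columns were mapped to samples by the labels.

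The counts of the zebrafish genes were analysed in R 4.3.3 with edgeR 4.0.16 (filterByExpr by group, TMM, quasi-likelihood F test, two-sided, Benjamini-Hochberg over 18116 genes, threshold 0.05), in 1 fit of 4 group means. Standard errors were derived from the F statistic. p-values measure the spread between the 3 libraries of a group. limma 3.58.1 (voom) and DESeq2 1.42.0 were alternatives, next to other scalings (RLE, ERCC counts, 4 T-cell marker genes), filters (none, or at least 10 CPM in 3 libraries), a replicate term, and leaving out each library. Single values were compared by exact permutation of day labels within each treatment. This is exact only where neither treatment differs between days and the groups have a like spread. A day difference shared by both treatments was not allowed for. The fit was also run on simulated counts with known interactions. The outcome is not reported here, and no result rests on it.

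The 55 gene lists and the choice of this comparison were made with earlier results of these data known, and lists were described by counts and medians without a set test. Genes named were the 12 per direction with the smallest interaction p (none passed), up to 5 with the smallest p per list described, *mycb*, *gata3*, *hexim1*, the transgenes and cell type markers; those treated at length were picked from these after their values were seen. Of the 25607 identifiers, 23632 had a name. Gene names in the paper's supplementary JQ1 comparison took precedence over those of the name table. Capitals are human symbols given by the name table for zebrafish genes, and digits after a hyphen are the end of the identifier where several genes share a name.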

Additional observations from a re-analysis of the deposited data

How the results depend on the processing

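The count of 0 calls rose to 1 (1 higher) with ERCC scaling in edgeR, to 36 (15 higher, 21 lower) in DESeq2 with its own size factors and to 622 (616 higher, 6 lower) in DESeq2 with ERCC size factors. It was 0 with RLE factors, limma-voom, no filter, the stricter filter and T-cell marker scaling, and 0 to 1 with any library left out, the 1 (higher) without DMSO replicate 3 of day 1. Spike-in and T-cell marker scaling moved the median interaction of all genes from 0.04 to 1.19 to 1.37, which by construction raises every gene and made the split of unadjusted calls 3735 higher and 42 lower with ERCC scaling in edgeR (655 and 605 with TMM), 806 and 464 with RLE, 1203 and 560 in DESeq2 and 339 and 665 in limma-voom. Under ERCC scaling in edgeR, ERCC size factors in DESeq2 and T-cell marker scaling, in that order, the interaction turned positive for *hexim1* (0.44, 0.43, 0.74), *BRD2* (0.22, 0.21, 0.48), *mycb* (0.43, 0.40, 0.27) and *gata3* (0.77, 0.74, 0.48). It did so for *themis* with the first 2 (0.17, 0.16) and for the ribosomal protein gene *RPL9* with the third (0.075). Without JQ1 replicate 2 of day 3, *mycb* and *gata3* turned to 0.06 and 0.16, and to 0.19 and 0.25 when DMSO replicate 3 of day 1 was left out too, a pair chosen after seeing the data; their lowest values were −0.94 and −0.82, without JQ1 replicate 1 of day 3. *CPB1* turned to 0.44 without JQ1 replicate 3 of day 1 and was lowest, −6.58, without that pair. No other gene traced across these settings changed sign. Some genes named, among them *vtg1*, *lyz* and *lgals1l1*, were not traced. The spike-in ratio interaction ranged from 0.63 to 1.41 (the highest without JQ1 replicate 1 of day 1), that of the transgenes from −1.83 to −0.33 and that of the T-cell markers from −1.18 to −0.34 with any library left out. With the replicate number as a term (replicate block) 0 genes were called and 1029 had an unadjusted p under 0.05. Same-numbered libraries, less their group means, correlated at −0.26 to 0.14, with 2 of 18 pairs over 0.1. Differently numbered libraries were not compared, so a pairing or batch shared by number was not tested. Medians and counts of lists were recomputed in every setting after seeing the data. With 3 libraries per group the common dispersion was 0.329. Neither depth nor the number of animals was varied.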
